A study of Bos indicus x Bos taurus with 45 samples.

Results

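The response of 2 striated muscle tissues, skeletal muscle and tongue, to large offspring syndrome (LOS) was followed in the same 8 bovine fetuses, with the fetus as the unit. Of the 45 small RNA libraries of the series, 16 belong to this comparison: 1 muscle and 1 tongue library from each of LOS fetuses 1 to 4 and control fetuses 1 to 4, chosen by the fetus number that both tissues share. The comparison covers the 414 mature microRNAs (miRNAs) listed in both tables, of 603 miRNAs listed for any of the 4 tissues of the series. LOS is an overgrowth condition of ruminant fetuses seen after assisted reproduction (ART). All fetuses were Bos indicus x Bos taurus crosses of about day 105 of gestation. The LOS fetuses were conceived by ART and had the syndrome, and the control fetuses were conceived by artificial insemination and were healthy. The tongue labels give all 8 as female, and the muscle labels give no sex. Because every LOS fetus came from ART and no control did, the syndrome and the way of conception cannot be told apart in these tissues. Dams and sires are not given, so the p-values below measure the spread between fetuses as labelled.

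A miRNA is cut from a hairpin precursor, and one strand, the guide, is loaded into an Argonaute protein and represses messenger RNAs that match its seed, while the other strand, the passenger, is mostly lost. Skeletal muscle and tongue are both built from striated fibres and share the muscle miRNAs miR-1, miR-133a and miR-206, which act in myoblast proliferation and differentiation. Several other miRNAs come from imprinted regions, where only 1 parental copy is active, such as DLK1-DIO3, GNAS and the IGF2 gene, and disturbed imprinting is a known feature of LOS and of the human Beckwith-Wiedemann syndrome.

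Levels are given as CPM: reads of a miRNA per 1000000 reads of the 414 shared miRNAs in that library, scaled by the TMM factors of the 16 libraries. The CPM of 7 further tongues, given below, were scaled by the factors of those 7 alone. Totals of listed reads were 4744968 to 6456252 in LOS muscle libraries, 5321105 to 5878392 in control muscle, 9357833 to 11370693 in LOS tongue and 9686419 to 13822348 in control tongue. The shared miRNAs took at least 99.7% of them, and the lowest count of any shared miRNA in a library was 6 in muscle and 11 in tongue. LOS muscle 3 had the fewest reads and the lowest scaling factor, 0.830. The libraries carried miRNAs of their labelled tissues, although miR-1 was far scarcer than miR-133a. The fetus means of miR-1 over both tissues, as log2 CPM, were 7.73 to 8.30 in LOS and 7.96 to 8.31 in control fetuses. miR-133a averaged 16036 ± 798 CPM in LOS muscle and 17191 ± 673 CPM in control muscle, and 13696 ± 1066 CPM in LOS tongue and 13023 ± 1818 CPM in control tongue (SD, n = 4 each). miR-205, a miRNA of stratified epithelium such as the surface of the tongue, averaged 34.1 ± 32.8 CPM in LOS muscle and 27.6 ± 19.5 CPM in control muscle, against 2633 ± 962 CPM in LOS tongue and 2536 ± 393 CPM in control tongue (SD, n = 4 each). miR-499 and miR-208b lie within myosin genes and mark slow fibres. miR-499 averaged 431 ± 97.3 CPM in LOS muscle and 514 ± 41.3 CPM in control muscle, and 17.7 ± 5.46 CPM in LOS tongue and 13.0 ± 3.01 CPM in control tongue (SD, n = 4 each). miR-208b averaged 1099 ± 262 CPM in LOS muscle and 1011 ± 196 CPM in control muscle, and 30.4 ± 13.2 CPM in LOS tongue and 20.6 ± 10.9 CPM in control tongue (SD, n = 4 each). The tissues are whole samples of many cell types, so fewer cells of a type and less RNA per cell cannot be told apart.

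No miRNA passed the test of the LOS effect averaged over both tissues. The lowest adjusted p was 0.0688, for miR-125b, in limma on the mean log2 CPM of each fetus with Benjamini-Hochberg adjustment over 414 miRNAs. Called miRNAs thus made up 0% of those tested, higher or lower, and 34 (8.21%) had an unadjusted p under 0.05, 15 of them higher in LOS (3.62%) and 19 lower (4.59%). Among those with the lowest p, miR-125b and miR-194 had lower levels in LOS, and miR-temp9-3p, miR-6123, miR-665 and miR-296-3p had higher ones. Of the 414 average effects, 202 (48.8%) lay above 0 and 212 (51.2%) below it, with a median of -0.0051 on the log2 scale. The fetus means of LOS and control fetuses did not overlap for 23 miRNAs (5.56%), with LOS higher in 8 (1.93%) and lower in 15 (3.62%). Within muscle, LOS and control libraries did not overlap for 15 miRNAs higher in LOS (3.62%) and 22 lower (5.31%), and within tongue for 3 higher (0.725%) and 9 lower (2.17%). In both tissues at once the libraries did not overlap for 3 miRNAs (0.725%): miR-194 and miR-temp72-5p were lower in LOS and miR-495-5p was higher. All differences below are LOS minus control on the log2 scale, ± the standard error (SE). For limma the SE comes from the fit. For edgeR it was computed as the absolute difference over the square root of the F statistic of the test, and the intervals use it.

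**Figure D1:**
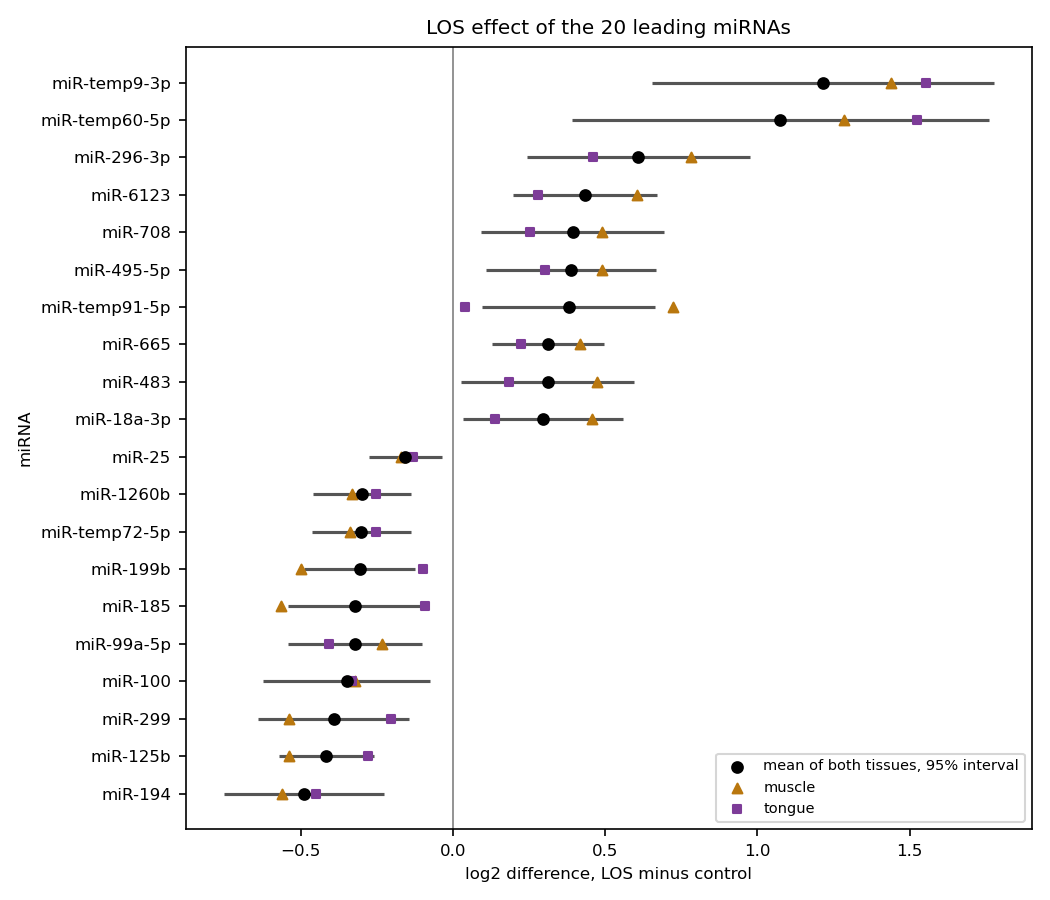
LOS minus control log2 difference of the 10 miRNAs with the lowest p in each direction, as the mean of both tissues with its 95% interval (limma on fetus means) and in muscle and tongue alone (edgeR). The single-tissue values lie on the side of 0 of their mean for all 20. For miR-temp9-3p and miR-temp60-5p both exceed the mean. The edgeR and limma fits differ in model and in scaling, and the cause was not tested.

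miR-125b is a vertebrate relative of the worm miRNA lin-4, and in mouse myoblasts it is known to target IGF2 and slow differentiation. Its level was 2969.6, 2468, 2539 and 2532 CPM in the muscles of LOS fetuses 1 to 4, against 3902, 3476, 3786 and 4352 CPM in control muscles. In tongue it was 6265, 7162, 5761 and 6052 CPM in LOS fetuses and 8382, 7686, 6863 and 7478 CPM in controls. Every LOS muscle lay below every control muscle. In tongue, LOS 2 reached above control 3 and the other LOS tongues lay below all controls. The average difference was -0.42 ± 0.069 (95% interval -0.57 to -0.26), a ratio of 0.750, and LOS fetus means lay below all control means in 4 of 4 fetuses. The difference was -0.54 ± 0.10 in muscle alone (adjusted p = 0.0536) and -0.28 ± 0.10 in tongue alone (adjusted p = 0.997, both by edgeR's quasi-likelihood test). miR-125b was called by limma-voom on the 16 libraries with the fetus as a random effect (adjusted p = 0.0184), an alternative to the test on fetus means. That fit used 1 within-fetus correlation for all miRNAs, which was weak at 0.174. Of 20 other settings of the average effect, 3 called miR-125b.

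The other guide strands of the family were lower on average too, with values that overlapped more. miR-99a, miR-99b and miR-100 share a seed and are known to target mTOR in human cells, and miR-125a shares the seed of miR-125b. miR-100 stood at 9811, 10326, 10524 and 7881 CPM in LOS tongues 1 to 4 and at 12667, 11743, 10759.8 and 12874 CPM in control tongues, and at 6361, 4178, 4573 and 3419 CPM in LOS muscles and 6259, 5324, 5519.8 and 6398 CPM in control muscles. All 4 LOS tongues lay below all control tongues for miR-100, and in muscle LOS 1 lay among the controls. Its average difference was -0.35 ± 0.12 (limma adjusted p = 0.400). miR-99a-5p stood at 2358, 2395, 2557 and 1838 CPM in LOS tongues and 3529, 2684, 2508 and 3303 CPM in control tongues, and at 1849, 1419, 1581 and 1614 CPM in LOS muscles and 1830.0, 1769.9, 1854 and 2256 CPM in control muscles, with overlap in each tissue. Its average difference was -0.32 ± 0.10 (limma adjusted p = 0.286). For miR-99b and miR-125a, which the rule for named miRNAs did not choose, the average differences were -0.26 ± 0.11 and -0.24 ± 0.11 (limma adjusted p = 0.564 and 0.564).

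Summed over the 5 guides, the family made up 30152, 33243, 28941 and 27711 CPM in LOS tongues 1 to 4, against 39783, 35088, 33481 and 34681 CPM in control tongues, so all LOS tongues lay below all control tongues. The sum was 22159.8, 18091, 17620.2 and 15580.3 CPM in LOS muscles and 24666, 20901, 22679 and 26567 CPM in control muscles, where LOS 1 overlapped with control 2. The average differences of the 5 guides lay between -0.42 and -0.24. They were below 0 in muscle (-0.54 to -0.23) and in tongue (-0.41 to -0.16) for 5 of 5. The 5 listed passenger strands of the same precursors had average differences of -0.032 to 0.18. Of all 10 family members, 8 lay below 0 and 4 were lower at an unadjusted p under 0.05, against 4.59% of all miRNAs tested. The guides share seeds and precursor clusters, so they are not independent members, and near-identical guides may share reads. The family stood out in earlier results of these data, and its counts are a description.

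**Figure D2:**
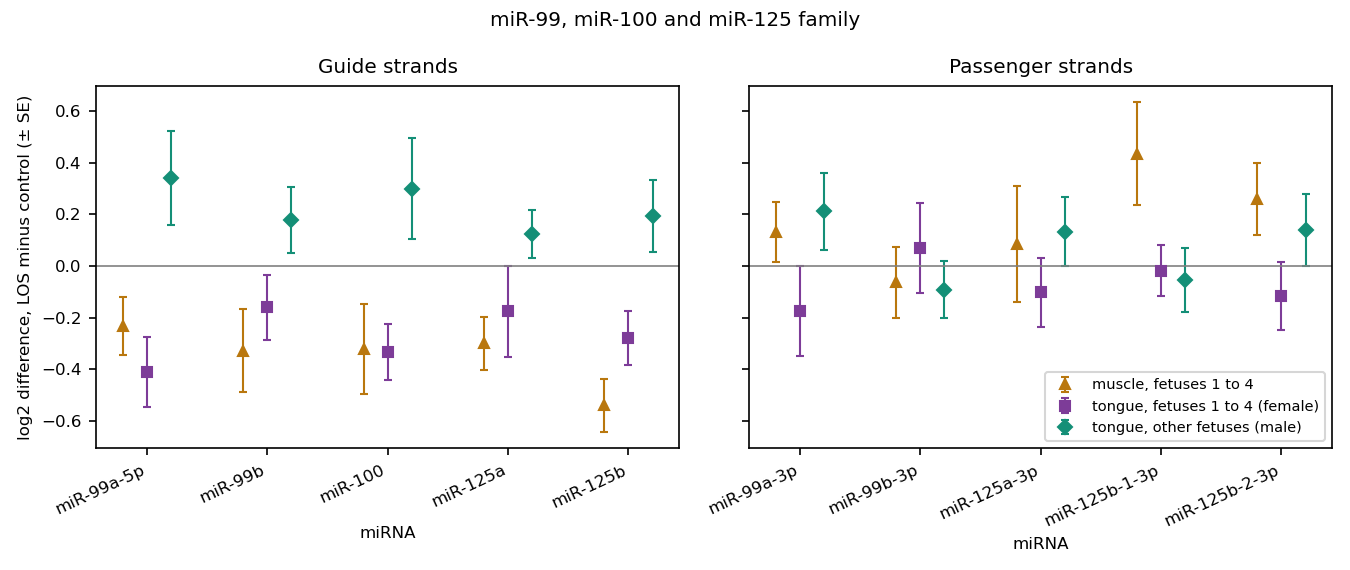
LOS minus control log2 differences of the guide strands (left panel) and passenger strands (right panel) of the miR-99, miR-100 and miR-125 family in muscle of fetuses 1 to 4, tongue of fetuses 1 to 4 and tongue of 7 other male fetuses. Bars are the SE computed from the F statistic of the edgeR test. The 5 guides lie below 0 in both tissues of fetuses 1 to 4 and above 0 in the male tongues.

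miR-194 was lower in LOS libraries of both tissues. It belongs with miR-192 and miR-215 to a group known from liver, gut and kidney epithelium. Its level was 29.1, 32.4, 30.2 and 31.2 CPM in LOS muscles 1 to 4 and 41.4, 61.0, 44.3 and 37.9 CPM in control muscles. In tongue it was 46.4, 49.3, 51.5 and 51.0 CPM in LOS fetuses and 71.0, 67.8, 77.6 and 51.8 CPM in controls. The groups did not overlap in either tissue, although LOS tongue 3 and control tongue 4 were close. The average difference was -0.49 ± 0.12 (limma adjusted p = 0.167), a ratio of 0.712. miR-192 and miR-215, named after their values were seen, had average differences of -0.28 ± 0.10 and -0.66 ± 0.44 (limma adjusted p = 0.471 and 0.678). miR-192 was 1401, 1449, 1267 and 1469 CPM in LOS tongues and 1985, 1723, 2069.6 and 1469 CPM in control tongues, with every LOS tongue below every control tongue but LOS 4 and control 4 almost equal, and it overlapped in muscle. miR-215 overlapped in both tissues and varied widely, from 19.99 to 47.1 CPM in LOS tongues and from 23.9 to 106 CPM in control tongues. The part of other cell types in these values was not tested.

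Of the remaining lower miRNAs, miR-1260b and miR-temp72-5p (a temporary name in the table) had counts that differed by under 15% in each of the libraries and may be the same reads counted for both. miR-temp72-5p was 104, 115, 135 and 108 CPM in LOS muscles and 169, 136, 149.7 and 137 CPM in control muscles, and 249, 240.5, 212 and 210.2 CPM in LOS tongues and 267, 291, 251 and 267 CPM in control tongues. The groups did not overlap in either tissue, although LOS muscle 3 and control muscle 2 were close, and miR-1260b overlapped in muscle. The miR-temp72-5p average difference was -0.30 ± 0.072 (limma adjusted p = 0.167), with -0.30 ± 0.071 for miR-1260b. miR-199b, a miRNA of mesenchymal cells such as fibroblasts, was lower on average. It stood at 1331, 1029, 1149 and 946 CPM in LOS muscles and 1687, 1496, 1538 and 1677 CPM in control muscles, with all LOS muscles lower, and at 2430, 2561, 3136 and 2899 CPM in LOS tongues and 3503, 2821, 2913 and 2459 CPM in control tongues, with overlap. Its average difference was -0.31 ± 0.082 (limma adjusted p = 0.198), its interaction, muscle minus tongue, was -0.45 ± 0.17 (edgeR adjusted p = 0.691), and in the tongues of other, male fetuses the difference was 0.29 ± 0.13. miR-299, from DLK1-DIO3, had an average difference of -0.39 ± 0.11, miR-185 of -0.32 ± 0.10 and miR-25, of the cluster in the MCM7 gene, of -0.16 ± 0.053 (limma adjusted p = 0.224, 0.286 and 0.388). For these 3 the LOS muscles lay below all control muscles and the tongues overlapped. miR-185 was scarce, at 4.96 to 5.64 CPM in LOS muscle and 7.42 to 8.94 CPM in control muscle.

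Among the higher miRNAs, miR-296-3p comes from the imprinted GNAS region, where in mouse it is made from the paternal copy. It was 539.9, 491, 799.8 and 582 CPM in LOS muscles 1 to 4 and 336, 382, 368 and 333 CPM in control muscles. In tongue it was 39.9, 30.4, 51.7 and 48.0 CPM in LOS fetuses and 33.5, 35.3, 33.4 and 20.3 CPM in controls. All LOS muscles lay above all control muscles, LOS 3 highest, while LOS tongue 2 lay below 3 of the control tongues. The average difference was 0.61 ± 0.16 (limma adjusted p = 0.198), a ratio of 1.52. Its partner strand miR-296-5p, named after its values were seen, had an average difference of 0.19 ± 0.18 (limma adjusted p = 0.755).

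miR-665, encoded in DLK1-DIO3, was 1602, 1735, 1738 and 1678 CPM in LOS muscles and 1294, 1281, 1231 and 1319 CPM in control muscles, and 744, 605, 849 and 933 CPM in LOS tongues and 647, 684, 770.4 and 556 CPM in control tongues. The muscle groups were far apart relative to their spread, and the tongue groups overlapped. miR-665 differed by 0.31 ± 0.081 on average (limma adjusted p = 0.198). miR-483 lies in an intron of IGF2, the paternally expressed fetal growth factor gene. It was 193, 188, 268 and 246 CPM in LOS muscles and 158, 142, 187 and 168 CPM in control muscles, and 120.1, 95.1, 154 and 104 CPM in LOS tongues and 95.4, 102, 112 and 101.4 CPM in control tongues. LOS 2 was the lowest LOS library in both tissues, just above all controls in muscle and below all of them in tongue. On average miR-483 differed by 0.31 ± 0.13 (limma adjusted p = 0.564).

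miR-495-5p, the third DLK1-DIO3 miRNA among the leading ones, was low in level but did not overlap between groups in either tissue. It was 6.90, 7.53, 7.88 and 7.90 CPM in LOS muscles and 5.44, 6.10, 5.94 and 4.32 CPM in control muscles, and 6.75, 5.69, 5.53 and 5.77 CPM in LOS tongues and 4.57, 5.32, 5.23 and 3.92 CPM in control tongues, with an average difference of 0.39 ± 0.12 (limma adjusted p = 0.349). miR-6123 was 342, 309.7, 545 and 341 CPM in LOS muscles and 285, 270.3, 217 and 249 CPM in control muscles, and 229.9, 241, 200.01 and 188 CPM in LOS tongues and 138, 184, 159 and 220.2 CPM in control tongues. LOS muscle 3 was far above the others, and the tongue groups overlapped through control 4. Its average difference was 0.43 ± 0.11 (limma adjusted p = 0.167).

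Among the 10 leading higher miRNAs, 2 entries with temporary names had the widest average differences, and few reads in tongue. miR-temp9-3p was 36.2, 106, 29.5 and 19.9 CPM in LOS muscles and 14.4, 21.2, 15.1 and 21.6 CPM in control muscles, and 15.7, 1.99, 6.16 and 6.98 CPM in LOS tongues and 2.42, 4.66, 1.87 and 1.37 CPM in control tongues. LOS 2 had the highest muscle value and the lowest LOS tongue value. The average difference was 1.21 ± 0.25 (limma adjusted p = 0.158), a ratio of 2.32. miR-temp60-5p repeated the split of LOS 2, with 218 CPM in its muscle and 1.04 CPM in its tongue, against 35.2 to 71.8 CPM in control muscles and 3.04 to 4.13 CPM in control tongues, and its average difference was 1.07 ± 0.30 (limma adjusted p = 0.224). miR-708, miR-temp91-5p and miR-18a-3p, the passenger strand of a miR-17 cluster member, had average differences of 0.39 ± 0.13, 0.38 ± 0.13 and 0.30 ± 0.12 (limma adjusted p = 0.388, 0.387 and 0.550).

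**Figure D3:**
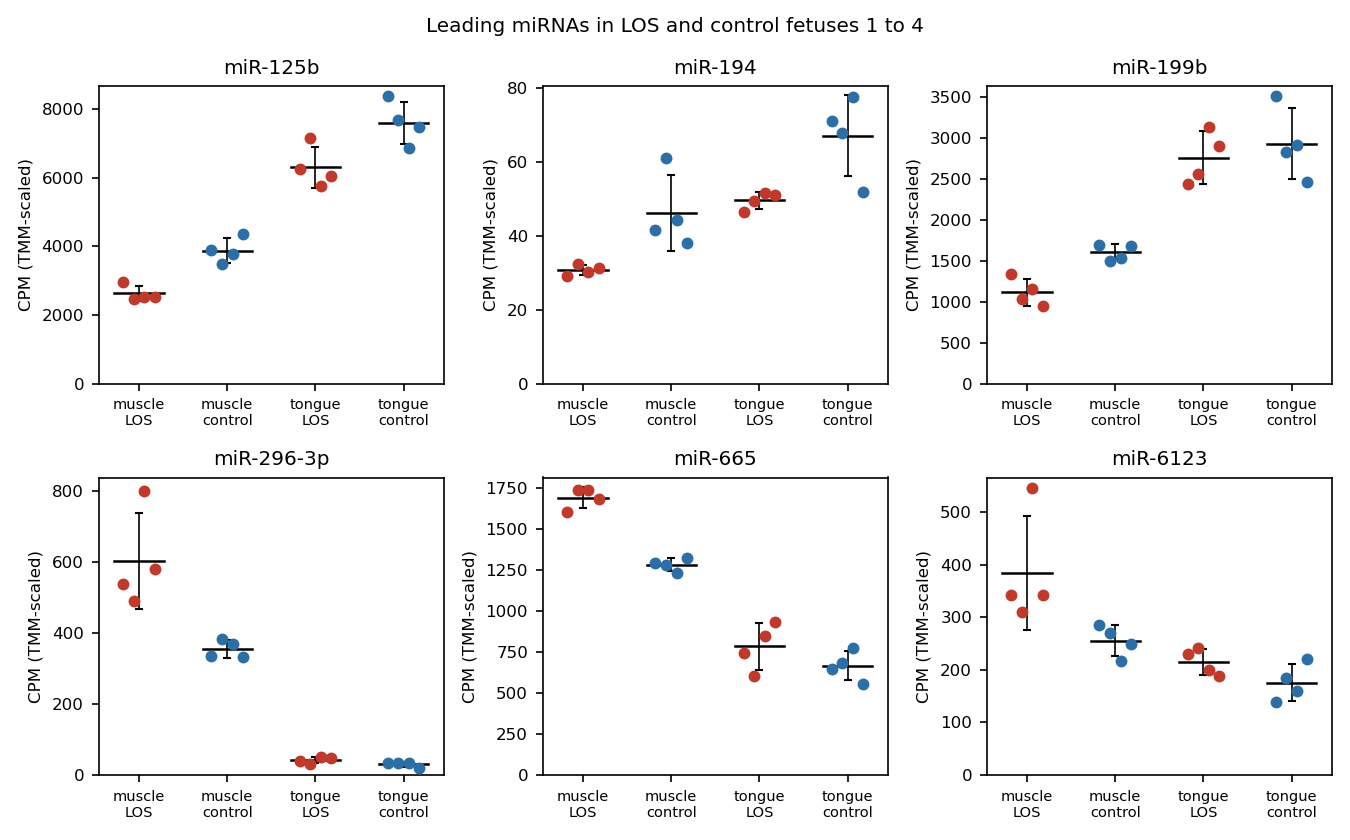
CPM (TMM-scaled, linear axis from 0) of miR-125b, miR-194, miR-199b, miR-296-3p, miR-665 and miR-6123 in LOS (red) and control (blue) fetuses 1 to 4, in muscle and then in tongue. Points are libraries, horizontal lines are group means and bars are ± SD (n = 4); in muscle the 2 groups are apart for each of the 6 miRNAs, and in tongue they are apart for miR-194 only.

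The muscle miRNAs themselves showed no LOS difference that passed. miR-133a, which promotes myoblast proliferation, was 15038 to 16988 CPM in LOS muscle and 16488 to 18106 CPM in control muscle, and 12767 to 15231 CPM in LOS tongue and 11362 to 14918 CPM in control tongue. Its average difference was -0.010 ± 0.064 (95% interval -0.15 to 0.13, limma adjusted p = 0.991), and its sign turned under several other settings. miR-206, a miRNA specific to skeletal muscle, was 634 to 919.9 CPM in LOS muscle and 784 to 1136 CPM in control muscle, and 470.3 to 654 CPM in LOS tongue and 476 to 688 CPM in control tongue. The average difference of miR-206 was -0.094 ± 0.12 (95% interval -0.37 to 0.18), and that of miR-1, which promotes differentiation, was -0.15 ± 0.13 (95% interval -0.44 to 0.14). The intervals leave room for differences in either direction. Over the 10 listed muscle miRNAs the median average difference was 0.024, with 5 above and 5 below 0, and 0 of 10 had an unadjusted p under 0.05. In muscle alone 6 of 10 lay below 0, against 210 of all 414, and in tongue 7 of 10 lay above 0, against 201. In the male tongues described below 9 of 10 lay below 0, against 184 of all 414.

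Lists of related miRNAs were read by their counts, beside 3.62% of all miRNAs higher and 4.59% lower at an unadjusted p under 0.05, and 0 members of any list were called for the average effect. The 5 miRNAs from IGF2, MEST and GNAS had a median average difference of 0.19, with 4 above 0 and 2 of 5 (miR-296-3p and miR-483) higher at that level. They include both strands of miR-296 and both of miR-335, so they are not independent. miR-335, from the imprinted MEST gene, had -0.0096. The 78 listed miRNAs of DLK1-DIO3, an imprinted cluster active on the maternal copy, had a median of -0.0050, with 38 above and 40 below 0, 3 higher and 1 lower at that level. miR-127, one of its most abundant members, had -0.015 ± 0.062 (95% interval -0.15 to 0.12). The let-7 list mixes guide strands, known as brakes on growth genes, with their passenger strands. Its 15 miRNAs, not split by strand here, had a median of -0.059, with 7 above and 8 below 0. let-7f had -0.12 ± 0.066 (limma adjusted p = 0.620). The 17 miRNAs of the miR-17 families, which act in growth and cell cycle, had a median of -0.044, with 6 above and 11 below 0. The 31 entries with temporary names had a median of 0.12, with 22 above and 9 below 0.

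The summed markers of mesenchyme, smooth muscle, endothelium, red cells, white blood cells, epithelium and nerve each overlapped between groups in both tissues. The summed red-cell miRNAs miR-451 and miR-144 were 93.1 to 156 CPM in LOS muscle and 89.0 to 173 CPM in control muscle, and 122 to 279 CPM in LOS tongue and 122 to 301 CPM in control tongue. The summed miR-126 and miR-139 of endothelium were 10497 to 14627 CPM in LOS muscle and 9713 to 11008 CPM in control muscle, and 9103 to 12375 CPM in LOS tongue and 8682 to 12215 CPM in control tongue. The 6 neural miRNAs summed to 1405 to 2002 CPM in LOS muscle and 1915 to 2238 CPM in control muscle. In tongue they summed to 578 to 744 CPM in LOS and 600 to 761 CPM in control. Their median average difference was -0.18, with 2 above and 4 below 0. In muscle alone 6 of 6 lay below 0, against 210 of all 414. In tongue 3 lay above and 3 below 0, and in the male tongues described below 5 lay above and 1 below 0. miR-338, known from oligodendrocytes and nerve sheath development, had the widest average difference of the 6, -1.08 ± 0.47 (limma adjusted p = 0.564), and was named after its values were seen. The part of these cell types in the results was not tested.

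Whether LOS acted differently in the 2 tissues was tested by the tissue by LOS interaction, muscle minus tongue, with the fetus as a block. No miRNA was called (0%), and the lowest adjusted p was 0.691 in edgeR's quasi-likelihood test, while 26 of 414 (6.28%) had an unadjusted p under 0.05, 9 with a higher effect in muscle (2.17%) and 17 with a lower one (4.11%). miR-temp91-5p had the lowest p, with an effect of 0.72 in muscle and 0.039 in tongue, an interaction of 0.66 ± 0.19. miR-26a, one of the most abundant miRNAs here and known in mouse to promote myoblast differentiation through Ezh2, was 76293, 71788, 118141 and 77406 CPM in LOS muscles and 46579, 60782, 45039 and 66068 CPM in control muscles. In tongue it was 65405, 54253, 95924 and 69908 CPM in LOS fetuses and 56534, 54084, 55269.5 and 84498 CPM in controls. All LOS muscles lay above all control muscles for miR-26a, and the tongues overlapped, with LOS 3 and control 4 high. The interaction of miR-26a was 0.46 ± 0.13 (adjusted p = 0.691 in edgeR). For miR-877, a mirtron made by splicing, it was 0.82 ± 0.25, with 43.8 to 93.3 CPM in LOS muscle and 34.1 to 43.3 CPM in control muscle, and 26.9 to 39.8 CPM in LOS tongue and 37.1 to 42.2 CPM in control tongue.

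The 3 leading miRNAs with a lower effect in muscle were all from DLK1-DIO3. miR-411c-5p had an interaction of -0.45 ± 0.13, miR-154a-3p of -0.72 ± 0.24 and miR-376e of -0.38 ± 0.13 (adjusted p = 0.691 for each in edgeR). miR-411c-5p was 534, 525, 320.5 and 436 CPM in LOS muscles and 676, 555, 715 and 712 CPM in control muscles, with all LOS muscles lower and LOS 3 lowest, and 893, 828, 524 and 907 CPM in LOS tongues and 796, 820.1, 862 and 863 CPM in control tongues, with overlap. Over the 78 DLK1-DIO3 miRNAs the median interaction was -0.10, against -0.037 over all 414, with 25 above and 53 below 0, against 178 above and 236 below 0 of all 414, and 6 lower at an unadjusted p under 0.05. Their median effect was -0.030 in muscle and 0.040 in tongue. These miRNAs come from 1 long transcript region and are not independent. The 8 members of the miR-424, miR-503, miR-542 and miR-450 cluster, which act in cell cycle exit, had interactions below 0 in 8 of 8, against 236 of all 414, with a median of -0.28. Of them, 6 lay below 0 in muscle, against 210 of all 414, and 8 of 8 above 0 in tongue, against 201 of all 414. They share a cluster and are not independent. Other lists also leaned to 1 side. Interactions lay below 0 for 9 of 10 miR-30 family miRNAs and 8 of 9 ruminant miR-2284 and miR-2285 miRNAs. The same held for 13 of 17 miR-17 family and 8 of 10 muscle miRNAs. Of 6 white blood cell miRNAs, 5 lay above 0.

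**Figure D4:**
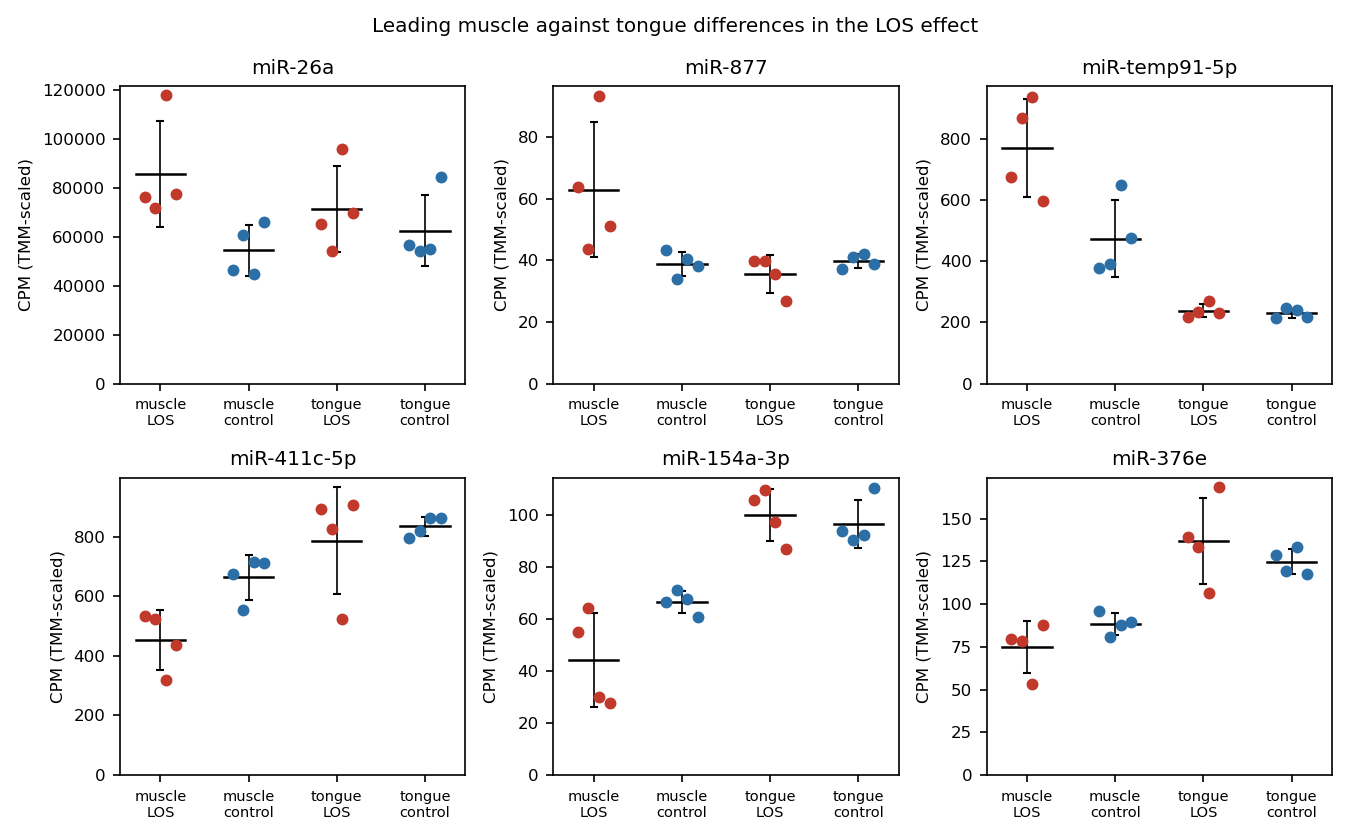
CPM (TMM-scaled, linear axis from 0) of the 3 leading miRNAs with a higher LOS effect in muscle than in tongue (upper row) and the 3 with a lower one (lower row), in LOS (red) and control (blue) fetuses 1 to 4. Points are libraries, horizontal lines are group means and bars are ± SD (n = 4); LOS muscle 3 is highest for miR-26a, miR-877 and miR-temp91-5p and lowest for miR-411c-5p and miR-376e, and no interaction passed an adjusted p of 0.05.

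Taken alone, muscle gave 2 called miRNAs of 414 (0.483%), both higher in LOS, by edgeR's quasi-likelihood test: miR-296-3p at 0.78 ± 0.14 and miR-665 at 0.42 ± 0.073 (adjusted p = 0.0495 for both). miR-296-3p and miR-665 rose in all 4 LOS muscles relative to all 4 control muscles, with means of 603 ± 136 CPM in LOS muscle and 355 ± 24.3 CPM in control muscle for miR-296-3p, and 1688 ± 63.8 CPM in LOS muscle and 1282 ± 37.0 CPM in control muscle for miR-665 (SD, n = 4 each). Both calls sat at the threshold and were lost when all 439 miRNAs of the muscle table were tested (lowest adjusted p 0.0526). Without LOS 2 or without LOS 3, 1 miRNA, miR-296-3p, was called, and without any other single fetus the count was 0. In tongue of the same fetuses no miRNA was called (0%) and the lowest adjusted p was 0.997. At an unadjusted p under 0.05 there were 55 miRNAs (13.3%) in muscle, 32 higher (7.73%) and 23 lower (5.56%), and 16 (3.86%) in tongue, 4 higher (0.966%) and 12 lower (2.9%). The interactions of miR-296-3p and miR-665 were 0.27 ± 0.18 and 0.17 ± 0.17 (95% intervals -0.13 to 0.66 and -0.21 to 0.55), so an effect of the same size in both tissues lies within each interval. Tissue and library set go together, since the processing notes differ between the 2 tables, so the 2 cannot be told apart in the interaction. The spread between fetuses was wider in LOS than in control for 267 of 414 miRNAs in muscle, with a median SD of 0.206 in LOS and 0.164 in control on the log2 scale, and for 214 of 414 in tongue, with 0.196 in LOS and 0.188 in control.

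A second set of tongues, from 7 other fetuses labelled male (LOS 5 to 7 and control 6 to 9), gives the tongue LOS effect in animals that the average effect did not use. Their CPM were scaled by TMM over these 7 libraries alone (factors 0.955 to 1.03). They are thus not on the scale of the CPM of fetuses 1 to 4. No miRNA was called there (0%), the lowest adjusted p was 0.798 in edgeR's quasi-likelihood test, and 21 of 414 (5.07%) had an unadjusted p under 0.05, 12 higher (2.9%) and 9 lower (2.17%). miR-125b was 6825, 7078 and 8309.7 CPM in LOS tongues 5 to 7 and 6805, 5940.1, 7819 and 5299 CPM in control tongues 6 to 9, with overlap and a difference of 0.20 ± 0.14. All 5 guides of the miR-99, miR-100 and miR-125 family had differences above 0, from 0.12 to 0.34. Their sum was 31025, 34342 and 37344 CPM in LOS and 30775, 25051, 36212 and 25330.3 CPM in control males. miR-296-3p had 0.23 ± 0.24, miR-665 0.062 ± 0.14, miR-495-5p -0.19 ± 0.13 and miR-temp9-3p 0.022 ± 0.55 in the males. miR-194 was 68.0, 59.5 and 61.1 CPM in LOS males and 71.7, 75.2, 70.9 and 217 CPM in control males, a difference of -0.79 ± 0.41 (edgeR adjusted p = 0.798).

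Control male 9 stood apart in the liver and gut miRNAs. Its tongue had 6914 CPM of miR-192 and 1129 CPM of miR-215, while the other male tongues had 1461 to 2225 and 25.7 to 129.2 CPM. Without control 9, miR-194 had a male difference of -0.22 ± 0.093 and the 5 guides had 0.10 to 0.26. The male LOS effect minus the effect in tongues of fetuses 1 to 4 was tested after the data were seen, in edgeR, and no miRNA was called (0%, lowest adjusted p 0.961), while 16 (3.86%) had an unadjusted p under 0.05, 7 of them higher in the males (1.69%) and 9 lower (2.17%). For the guides this difference was 0.74 ± 0.23 for miR-99a-5p, 0.62 ± 0.22 for miR-100, 0.46 ± 0.17 for miR-125b, 0.33 ± 0.18 for miR-99b and 0.29 ± 0.22 for miR-125a, each with an adjusted p of 0.961. Without control 9 it was 0.68, 0.53, 0.39, 0.31 and 0.28 in the same order (adjusted p = 0.994). Sex and the set of fetuses cannot be told apart here.

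The same 8 fetus numbers also have kidney and liver libraries, so the LOS effect in muscle and tongue was set against that in kidney and liver, fetus by fetus, for the 374 miRNAs listed in all 4 tissues. No miRNA was called (0%), with the lowest adjusted p 0.135 in limma on fetus means. At an unadjusted p under 0.05 there were 51 (13.6%), 39 of them with a lower effect in muscle and tongue (10.4%) and 12 with a higher one (3.21%). The median effect was 0.000074 in muscle and tongue and 0.052 in kidney and liver, and the median difference was -0.060. let-7f had a LOS effect of -0.10 in muscle and tongue and 0.32 in kidney and liver, a difference of -0.43 ± 0.088 (limma adjusted p = 0.135). In kidney alone the let-7f effect was 0.064, and in liver alone it was 0.59. Of the 14 let-7 and miR-98 miRNAs listed in all 4 tissues, guide and passenger strands together, 11 had a difference below 0. The same held for 251 of all 374, and 5 of the 14 had an unadjusted p under 0.05. Their median effect was -0.046 in muscle and tongue, -0.0096 in kidney and 0.43 in liver.

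Among the leading miRNAs of muscle and tongue, miR-665 had an effect of 0.33 in muscle and tongue and -0.014 in kidney and liver, a difference of 0.34 ± 0.10 (limma adjusted p = 0.187). For miR-296-3p the effects were 0.62 in muscle and tongue, 0.34 in kidney and 0.32 in liver. miR-125b had -0.40 in muscle and tongue, -0.37 in kidney and 0.067 in liver, a difference of -0.25 ± 0.080 (limma adjusted p = 0.201). miR-100 had -0.34 in muscle and tongue, -0.62 in kidney and -0.072 in liver. miR-194 had -0.48 in muscle and tongue and -0.086 in kidney and liver, organs known to express it, a difference of -0.39 ± 0.13 (limma adjusted p = 0.201). miR-299 had -0.38 in muscle and tongue and 0.036 in kidney and liver (limma adjusted p of the difference = 0.163). miR-1, miR-206 and miR-495-5p were not listed in all 4 tissues and were not compared.

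**Figure D5:**
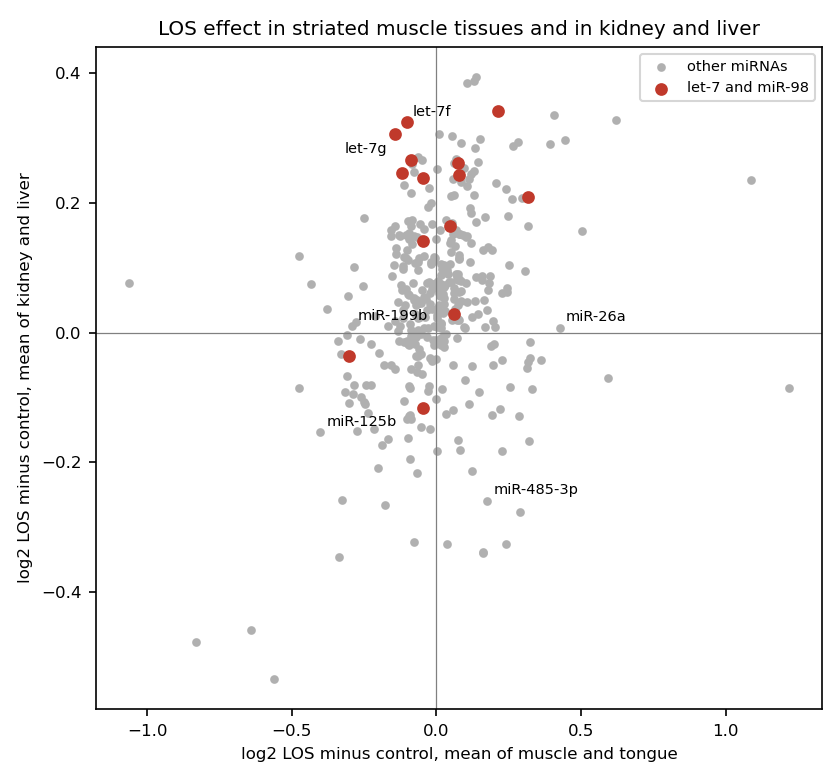
LOS effect (log2, LOS minus control, fetus means) in muscle and tongue (x axis) against that in kidney and liver (y axis) for the 374 miRNAs listed in all 4 tissues, with let-7 and miR-98 miRNAs in red. let-7f and let-7g lie below 0 in muscle and tongue and above 0 in kidney and liver, and no difference passed an adjusted p of 0.05.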

How the data were processed

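The authors deposited raw counts, 1 whole number for each miRNA in each library. The submitters' processing notes name Bowtie and UMD3.1, a cattle genome build, for muscle and tongue, and cutadapt 1.18 only for tongue, without saying what each did. How reads were counted, on which annotation and with what filter is not given in the sources. Positions and sequences are not printed.

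Counts of the 414 shared miRNAs were scaled by TMM over the 16 libraries (factors 0.830 to 1.21) in R 4.3.3. For the single tissues, the male tongues and the comparison with kidney and liver, TMM ran over the libraries of each test. The average LOS effect was tested with limma 3.58.1 on the mean log2 CPM (prior count 2) of the 2 libraries of each fetus, since edgeR has no random fetus term, and edgeR 4.0.16 on summed counts was an alternative. The interaction (fetus as block) and the single tissues used the quasi-likelihood test of edgeR, and kidney and liver were compared with limma. Benjamini-Hochberg adjustment ran over all miRNAs tested, with a call under 0.05. DESeq2 1.42.0, limma-voom and other settings were alternatives. Tests were tried on simulated counts first. Named miRNAs are up to 10 per direction by p of the average effect, 3 per direction by p of the interaction and 10 fixed names. Lists group miRNAs by family, locus or cell type. The members, lists and tests were chosen with earlier results of these data known.

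A fetus number was taken as 1 fetus across tissues, from the labels. The deviations of muscle and tongue libraries with the same number correlated highest within their group in 5 of 8 fetuses (r from -0.085 to 0.384), so the pairing is only partly visible in the data. LOS and control fetuses with the same number are different animals. No pair of libraries within a group agreed within sampling noise. Library totals count listed miRNAs only and are not full depths. Reads without molecular identifiers are not independent molecules.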

Additional observations from a re-analysis of the deposited data

Results flagged for a closer look

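Among 30 named miRNAs in 4 groups of 4 libraries (120 groups), 8 had 1 library far from the other 3 by Dixon's criterion, and chance flags about 1 in 20 groups. In LOS muscle, miR-6123 stood at 545 CPM in fetus 3, with 309.7 to 342 CPM in the others. miR-26a stood at 118141 CPM in the same library, with 71788 to 77406 CPM in the others. miR-125b stood at 2969.6 CPM in LOS muscle 1, with 2468 to 2539 CPM in the others. miR-708 stood at 164 CPM in LOS tongue 3, with 128.9 to 134 CPM in the others. The remaining 4 were in control tongue 4. miR-296-3p was low there, at 20.3 CPM against 33.4 to 35.3 CPM in the other control tongues. miR-26a was high at 84498 CPM (54084 to 56534 CPM in the others), miR-154a-3p at 110.2 CPM (90.5 to 93.7 CPM) and let-7f at 17455 CPM (15259 to 15397 CPM). The part of these single libraries in the tongue results was not tested beyond leaving each fetus out.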

How the results depend on the processing

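Over 20 other settings the average LOS effect kept 0 calls except with 4 other tools or units. edgeR on counts summed per fetus called 1 (miR-296-3p higher, adjusted p = 0.000908), limma-voom with a random fetus effect called 1 (miR-125b lower, adjusted p = 0.0184), edgeR with the fetus ignored called 3 (miR-296-3p higher, miR-125b and miR-194 lower) and DESeq2 on summed counts called 11 (7 higher, 4 lower). Summed counts weight the tissue with more reads of a miRNA, through depth and level, and ignoring the fetus treats 16 libraries as independent. For miR-296-3p, far more abundant in muscle, edgeR on summed counts gave 0.84, against 0.78 in muscle alone and 0.46 in tongue alone. Leaving out each fetus gave 0 to 0 calls for the average effect, 0 to 0 in tongue and in the male tongues, 0 to 1 for the interaction (miR-temp45-3p, -1.52, without LOS 2, adjusted p = 0.0290), 0 to 1 in muscle and 0 to 2 against kidney and liver (let-7f and let-7g without LOS 2, adjusted p = 0.0284). Every other setting of the interaction, of tongue, of the male tongues and of the comparison with kidney and liver gave 0 calls, DESeq2 and limma-voom included where run. Muscle gave 3 calls with RLE factors and 3 with the 3 most abundant miRNAs removed, both adding miR-125b, 12 with DESeq2 (8 higher, 4 lower), 0 with limma-voom and 0 with all miRNAs of the muscle table, an alternative chosen after seeing the data. With the replicate block, which pairs LOS and control by number, muscle gave 0 calls and the other results changed no call; the number did not pair them (correlations of -0.352 to 0.154 in muscle and -0.459 to 0.083 in tongue). Of 591 values recomputed for 30 named miRNAs, 15 turned sign, all of 4 miRNAs near 0, and the cause was not tested. miR-133a had 0.0012 with RLE factors, 0.015 with the 3 most abundant miRNAs removed, 0.020 and 0.022 with edgeR and DESeq2 on summed counts, and 0.0062, 0.011, 0.014 and 0.00053 without LOS 3, LOS 4, control 2 and control 3. miR-376e had 0.029 and 0.033 with edgeR and DESeq2 on summed counts and 0.062 without LOS 3. Without LOS 3, miR-206 had 0.0041 and miR-127 had 0.017, and miR-127 had 0.0024 without LOS 4 and 0.0055 without control 4. Over all single fetuses left out, the lowest and highest values were -0.038 and 0.014 for miR-133a, -0.17 and 0.062 for miR-376e, -0.17 and 0.0041 for miR-206, and -0.042 and 0.017 for miR-127. Each group held 4 fetuses, which limits the precision of every difference.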

Other observations

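Both strands of miR-27b, chosen after their values were seen, were lower in LOS on average. miR-27b is known in mouse to target Pax3 in muscle progenitors. It was 14928, 15686, 13936 and 15308 CPM in LOS muscles 1 to 4 and 18728, 20109, 17509 and 18057 CPM in control muscles, and 35026, 34293, 25924 and 37184 CPM in LOS tongues and 32736, 39751, 35715 and 36411 CPM in control tongues. The muscle groups did not overlap, and the tongue groups did. The average difference was -0.23 ± 0.084 for miR-27b and -0.29 ± 0.11 for miR-27b-5p (limma adjusted p = 0.479 and 0.493), and in the male tongues it was 0.029 ± 0.13 and -0.011 ± 0.14 (edgeR).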
